A study of Mus musculus with 18 samples.

Results

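The genes of cholesterol and fatty acid synthesis were followed in antigen-activated mouse CD8+ T cells after culture with each of 5 common gamma chain cytokines. A list of 40 genes was set out by function, from the mevalonate enzymes to the acyl-CoA synthetases, and 39 of them were measured by a probe set of their own, out of 18194 genes in all (Acat2 was not analysed here). The cells were naïve CD8+ T cells of male OT-I TCR Tg mice (given as OT-I Thy1.1 in the methods), whose transgenic receptor recognises an ovalbumin peptide. They were primed for 48 hours with irradiated, peptide-pulsed splenocytes of wild-type C57BL/6 mice, enriched for live cells over Ficoll, and cultured for 24 hours. Murine IL-2, IL-15, IL-4, IL-7 or IL-21 was added at 100 ng/ml, and the media control received no cytokine, so that all 6 groups share the priming and the stimulator cells. Each group had 3 biological replicates, 1 array each, with RNA from RNeasy columns for replicates 1 and 2 and from TRIzol with Direct-zol for replicate 3.

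Dividing cells need sterols and fatty acids for new membranes, and resting T cells make little of either. Cholesterol is built from acetyl-CoA through mevalonate, isoprenoids, squalene and lanosterol, while acetyl-CoA is turned into palmitate by acetyl-CoA carboxylase and fatty acid synthase and then desaturated and elongated. Most of these enzymes are targets of the SREBP transcription factors, which Scap carries out of the endoplasmic reticulum when sterols are low and which Insig proteins hold back when sterols are high. Sterol surplus instead activates LXR, which is known to induce the exporters Abca1 and Abcg1.

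The values are log2 expression values per probe set, and differences between groups are given on that log2 scale with their standard error (SE). Replicate 3 of IL-2, of IL-15 and of media control was deposited on a lower scale than the other 15 arrays (medians of 4.47 to 4.52 against 5.76 to 5.84), so all 18 columns were put on 1 distribution before any comparison. On these 3 arrays the 3′ actin control probe set also exceeded the 5′ one by 0.59 to 0.68, against 0.19 to 0.39 on the other 15. The 10 measured CD8 T cell markers lay above the background level of 6.72 in every group, and 7 of 8 B cell markers lay under it in every group except IL-21, where all 8 did. The CD8 T cell markers also moved, with 7 of the 10 lowered by IL-2 (median difference −0.77), 3 by IL-4, 1 by IL-7 and 1 by IL-21, where these cytokines lowered 8%, 5.1%, 0.747% and 3.29% of all genes, and their part in the results below was not tested. The mean of 8 myeloid markers per array was 5.28 to 5.60 for IL-2, 5.34 to 5.83 for IL-4, 5.22 to 6.01 for IL-7, 5.43 to 6.76 for IL-15 and 5.43 to 6.69 for IL-21, against 5.83 to 7.45 in media control. By group mean, 8 of the 8 lay under the background level with IL-2, 6 with IL-4 and 7 with IL-7. With IL-15 5 did, with IL-21 6 and in media control 4, so these means rest largely on dim values. The markers not under it in media control were Lyz2, Csf1r, Cd68 and Mpeg1. IL-2 lowered the B cell markers Cd79a (−0.64), Cd79b (−0.60) and Ms4a1 (−0.998), the myeloid marker Cd68 (−1.45) and the dendritic cell marker Itgax (−1.42). IL-7 lowered Cd79a and Ms4a1, and IL-21 lowered Cd79b. None of these markers was called higher with a cytokine. The myeloid marker Lyz2 averaged 9.34 in media control against 6.42 with IL-2, and was not called. Fewer cells of a type and less RNA per cell cannot be told apart in such bulk samples.

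IL-2, IL-4, IL-7 and IL-21 each raised many of the 39 genes, but only 1 or 2 of the 5 genes of acetyl-CoA, NADPH and fatty acid synthesis. For 28 of the 39 the IL-15 mean lay above that of media control and below those of these 4 cytokines. The share of all genes with this order of means was not counted. At an adjusted p under 0.05 in the limma fit, IL-2 raised 24 of the 39 genes, where 7.83% of all genes rose, and lowered 2, where 8% fell. IL-4 raised 22 (3.98% of all genes) and lowered none, with 5.1% of all genes lowered. IL-7 raised 16 (0.934% of all genes) and lowered none (0.747%), and IL-21 raised 22 (3.39%) and lowered 1 (3.29%). The median difference over the 39 genes was 0.83 for IL-2, 0.82 for IL-4, 0.59 for IL-7, 0.25 for IL-15 and 0.72 for IL-21, while the median over all genes lay between −0.02 and 0.01. These 5 comparisons share the same 3 media control arrays.

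With IL-2, 24 of the 39 genes had all 3 arrays above all 3 media control arrays (12.9% of all genes), as did 28 for IL-4 (12.5%), 26 for IL-7 (9.07%) and 29 for IL-21 (10.1%). Averaged over the 17 enzymes from mevalonate to cholesterol, the arrays lay 0.97 to 1.27 above the media control mean for IL-2, 1.09 to 1.29 for IL-4, 0.82 to 0.95 for IL-7, 0.03 to 0.77 for IL-15 and 1.19 to 1.27 for IL-21. The media control arrays themselves spanned −0.21 to 0.19 on the same measure. The 3 groups with the highest myeloid marker means differed in this measure. In replicates 1, 2 and 3 it was 1.27, 1.22 and 1.19 on the IL-21 arrays, at myeloid means of 5.95, 6.69 and 5.43. It was 0.37, 0.03 and 0.77 on the IL-15 arrays, at myeloid means of 5.88, 6.76 and 5.43, against 0.19, −0.21 and 0.03 on the media control arrays, at 6.28, 7.45 and 5.83. Replicate 2 had the highest myeloid mean in all 6 groups. Its sterol mean was the lowest of the group in IL-15 and media control but not in IL-21. In IL-2, IL-4 and IL-7 its sterol mean was the highest of the group (1.27, 1.29 and 0.95). The part of myeloid RNA in the sterol gene values was not tested.

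**Figure D1:**
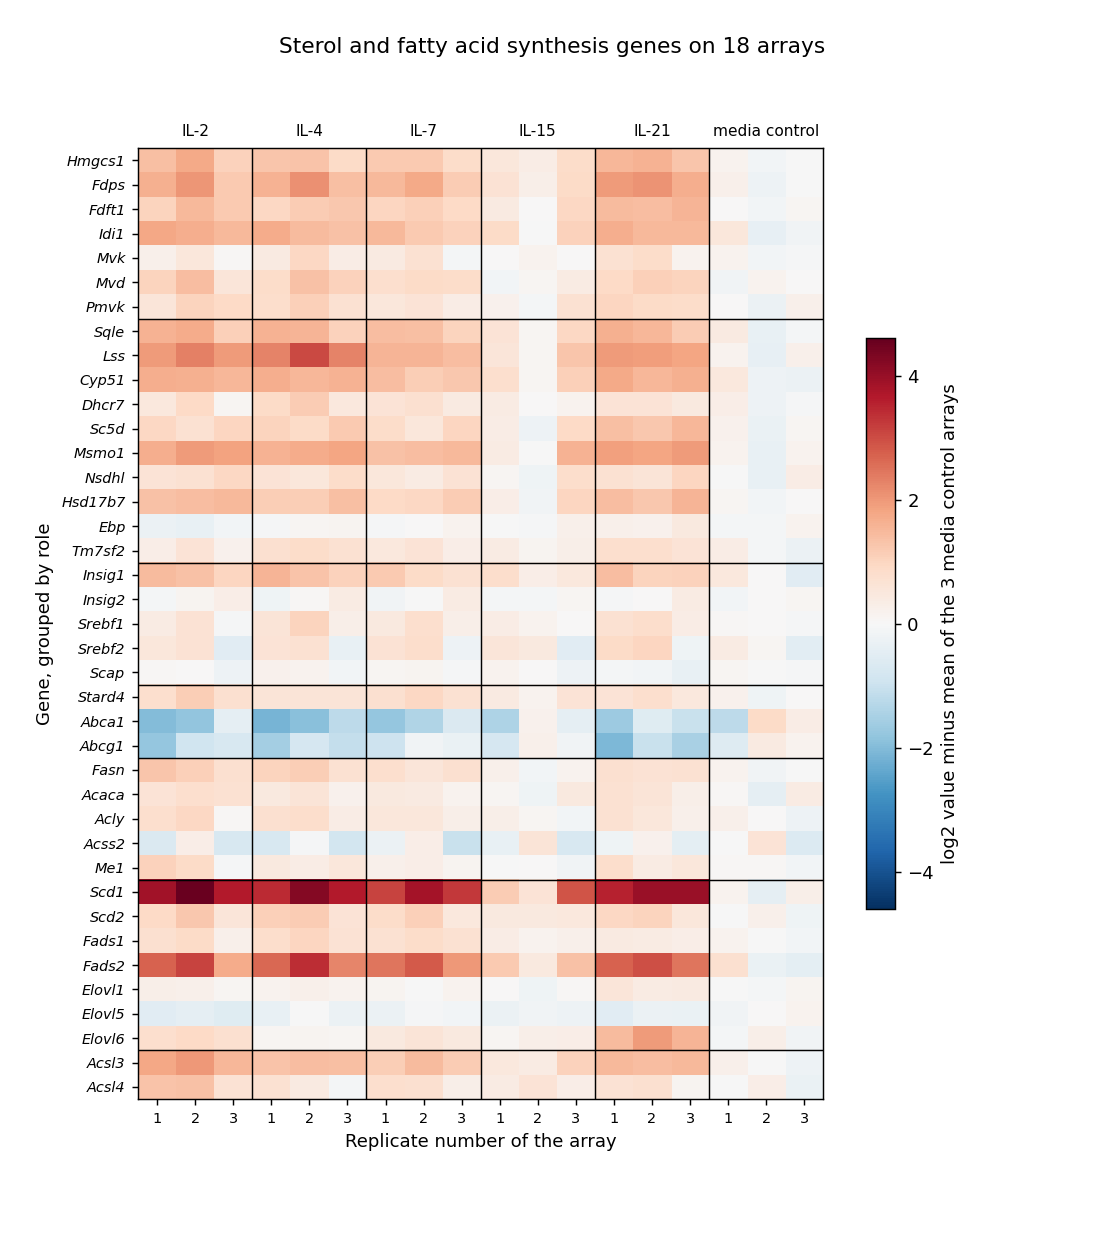
Heat map of the 39 genes (down the page, grouped by role) on the 18 arrays (across, by group and replicate number), coloured by the log2 value minus the mean of the 3 media control arrays. The columns of IL-2, IL-4, IL-7 and IL-21 are red over most of the sterol genes, IL-15 is paler, and Scd1 and Fads2 are the darkest.

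In all, 15 genes rose with each of IL-2, IL-4, IL-7 and IL-21. Another 5 rose with 3 of these cytokines, 2 with 2 and 5 with 1, while 2 fell with at least 1 and 10 were called with none. The share of all genes with such joint calls was not counted, and these comparisons share the media control arrays. A test of any difference among the 6 groups called 24 of the 39 genes (13.9% of all genes). With the replicate number as a block (a replicate block), which takes up shifts shared by same-numbered arrays, no call was lost and 6 members were added for IL-2, 8 for IL-4, 13 for IL-7 and 12 for IL-21, where 30.6%, 25.8%, 16.3% and 21.1% of all genes were called. On the values as deposited only 3 members were called for IL-2, 3 for IL-4, 1 for IL-7 and 5 for IL-21, where 0.407%, 0.368%, 0.044% and 0.495% of all genes were. The IL-7 count rested on single arrays, with 4 calls without media control replicate 2, 7 without media control replicate 3, 4 without IL-7 replicate 1, 2 without IL-7 replicate 2 and 12 without IL-7 replicate 3.

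Other probe sets of the genes called gave the same direction wherever their mean was not under the background level, in 23 of 23 for IL-2, 18 of 18 for IL-4, 15 of 15 for IL-7 and 22 of 22 for IL-21. With dimmer probe sets counted too, 35 of 37 gave the same direction with IL-2 and 28 of 30 with IL-4. The probe sets used for Hmgcs1, Fdft1, Hsd17b7, Elovl1 and Elovl5 are of the _x_at kind, whose probes may also bind other transcripts.

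**Figure D2:**
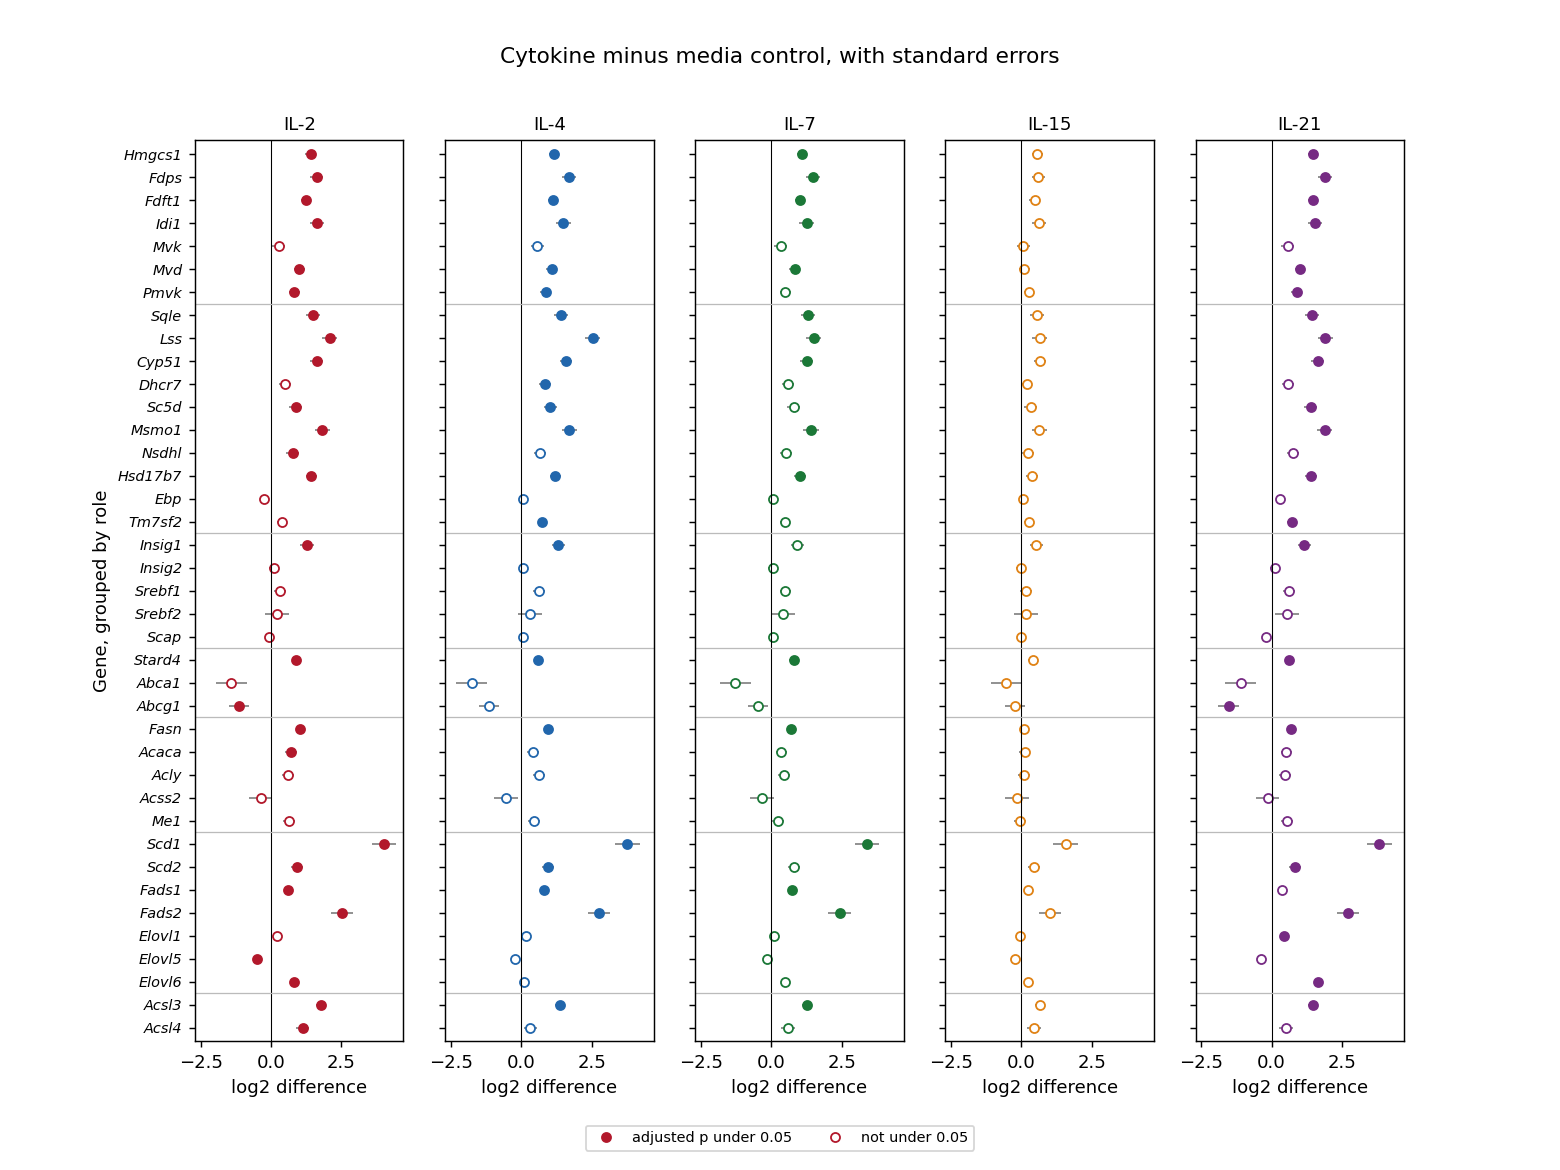
Log2 difference from media control (x axis) with its standard error for each of the 39 genes (y axis), 1 panel per cytokine, with filled points at an adjusted p under 0.05. Filled points lie to the right of 0 apart from Abcg1 with IL-2 and IL-21 and Elovl5 with IL-2, and the IL-15 panel has none.

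The promoter stretches below show the kinds of regulatory letters these genes carry near their starts. Windows of 250 bases before to 50 bases after a transcript start, of which a gene may have several, were matched in RefSeq (GRCm38.p6) for 31 of the 39 genes, and each motif was searched on both strands, with matches of different motifs counted separately even where they overlap. No window was matched for Abcg1, Scd1, Scd2, Sqle, Fads1, Fdps, Fdft1 and Stard4, so these 8 genes were not searched. A sterol regulatory element of the form TCACNCCAC was found in 1 of the 31, Hmgcs1, and in 1.44% of all 27025 genes with a window. An LXR-type element, TGACC and TAACC with 5 bases between them, was found in Abca1, Srebf1, Fasn and Acsl3 and in 13 genes of all (0.0481%). Its letters are those known from the first 3 of these genes, so the match is no result about them. Each stretch is written along the strand of its gene. The sterol regulatory element is in capitals in Hmgcs1 and the LXR-type element in the other 4.
Hmgcs1 (chr13:119690189-119690247, plus strand): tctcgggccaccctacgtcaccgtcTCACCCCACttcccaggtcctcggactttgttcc
Abca1 (chr4:53159923-53159987, minus strand): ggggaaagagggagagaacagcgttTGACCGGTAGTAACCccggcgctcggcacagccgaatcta
Srebf1 (chr11:60210614-60210678, minus strand): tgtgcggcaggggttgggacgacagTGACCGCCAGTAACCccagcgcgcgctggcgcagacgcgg
Fasn (chr11:120824733-120824797, minus strand): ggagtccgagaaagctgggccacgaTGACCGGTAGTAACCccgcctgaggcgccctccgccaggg
Acsl3 (chr1:78657688-78657752, plus strand): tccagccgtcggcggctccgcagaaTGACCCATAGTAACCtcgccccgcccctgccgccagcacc
The element ends 129 bases before the transcript start of the window in Hmgcs1, 53 in Abca1, 168 in Srebf1, 211 in Fasn and 98 in Acsl3. In Abca1, Srebf1 and Fasn that start lies downstream of the outermost start of the gene, so these stretches are inside the annotated gene.

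Commoner letters were shared by more of the genes. The CCAAT box, bound by NF-Y, which works together with SREBPs, occurred in 25 of the 31 genes with a window (80.6%). It occurred in 41.1% of all genes with a window. The GC box GGGCGG, bound by Sp1, occurred in 26 (83.9%), against 38.2% of all genes with a window. The E-box CACGTG occurred in 7 (22.6%), against 8.09%. Lss and Msmo1, which had the largest differences among the enzymes from squalene to cholesterol, carry the CCAAT box shown in capitals (1 of 3 in the Msmo1 window), which reads ATTGG where it lies on the other strand. The transcript start used for Lss also lies downstream of the outermost one. A match here is a description of the letters and was not tested as a binding site.
Lss (chr10:76531518-76531572, plus strand): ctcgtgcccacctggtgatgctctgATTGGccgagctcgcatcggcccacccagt
Msmo1 (chr8:64733709-64733763, minus strand): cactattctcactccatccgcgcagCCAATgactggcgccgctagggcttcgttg

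The 7 measured enzymes that lead to squalene rose together with IL-2, with IL-4 and with IL-21, except for Mvk, mevalonate kinase. Of the 7, 6 were called with each of these cytokines and 5 with IL-7. Fdps, which makes farnesyl pyrophosphate, had log2 values of 12.01, 12.43 and 11.58 under IL-2, 11.99, 12.49 and 11.77 under IL-4 and 11.89, 12.14 and 11.57 under IL-7. It had 11.06, 10.64 and 11.25 under IL-15 and 12.34, 12.44 and 12.07 under IL-21, against 10.63, 10.15 and 10.38 in media control. Every array of the 5 cytokines lay above all 3 media control arrays. The difference was 1.90 (SE 0.24, adjusted p = 0.000142) for IL-21, a 3.72-fold higher level, 1.70 (SE 0.24, adjusted p = 0.000374) for IL-4 and 1.62 (SE 0.24, adjusted p = 0.000289) for IL-2. With IL-7 it was 1.48 (SE 0.24, adjusted p = 0.00805), and this call was lost without IL-7 replicate 2 (adjusted p = 0.0579).

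Idi1, the isomerase that makes the 2 isoprenoid building blocks interchangeable, had log2 values of 11.90, 11.82 and 11.62 under IL-2, 11.83, 11.59 and 11.48 under IL-4 and 11.61, 11.35 and 11.20 under IL-7. Its values were 11.0002, 10.11 and 11.19 under IL-15 and 11.80, 11.62 and 11.61 under IL-21, against 10.67, 9.77 and 9.97 in media control. The IL-2, IL-4, IL-7 and IL-21 arrays all lay above media control, and IL-15 replicate 2 lay within its range. The difference was 1.64 (SE 0.25, adjusted p = 0.000381) for IL-2, 1.4997 (SE 0.25, adjusted p = 0.0014) for IL-4, 1.25 (SE 0.25, adjusted p = 0.0219) for IL-7 and 1.54 (SE 0.25, adjusted p = 0.00131) for IL-21. The IL-7 call was lost without IL-7 replicate 1 or 2, or media control replicate 2 or 3 (adjusted p = 0.131, 0.0798, 0.122 and 0.0916).

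Fdft1, squalene synthase, the first enzyme committed to sterols, had log2 values of 10.61, 11.04 and 10.79 under IL-2, 10.53, 10.75 and 10.81 under IL-4 and 10.56, 10.68 and 10.49 under IL-7. It had 9.96, 9.60 and 10.53 under IL-15 and 11.01, 10.996 and 11.12 under IL-21, against 9.58, 9.45 and 9.67 in media control. Only IL-15 replicate 2 overlapped the media control arrays. The difference was 1.48 (SE 0.18, adjusted p = 0.00013) for IL-21, 1.25 (SE 0.18, adjusted p = 0.000289) for IL-2, 1.13 (SE 0.18, adjusted p = 0.00112) for IL-4 and 1.01 (SE 0.18, adjusted p = 0.0135) for IL-7, the last lost without IL-7 replicate 1 or 2, or media control replicate 2 (adjusted p = 0.0672, 0.0733 and 0.0747). Hmgcs1, which makes HMG-CoA, and Mvd, the mevalonate decarboxylase, also rose with these 4 cytokines, by 1.09 to 1.47 and by 0.82 to 1.09. Pmvk, phosphomevalonate kinase, rose with IL-2 by 0.83, with IL-4 by 0.87 and with IL-21 by 0.89, and differed by 0.50 (SE 0.19) for IL-7. For Mvk the differences ran between 0.07 with IL-15 and 0.58 with IL-4 and none was called, while with the replicate block those of IL-4 and IL-21 were.

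Of the 10 measured enzymes from squalene to cholesterol, IL-2 raised 7, IL-4 raised 8, IL-7 raised 5 and IL-21 raised 7. Lss, lanosterol synthase, which closes the sterol rings, differed most. It had log2 values of 10.34, 10.68 and 10.32 under IL-2, 10.67, 11.42 and 10.64 under IL-4 and 9.92, 9.94 and 9.78 under IL-7, and of 8.94, 8.45 and 9.66 under IL-15 and 10.34, 10.30 and 10.20 under IL-21, against 8.54, 7.98 and 8.60 in media control. IL-4 replicate 2 was the highest array, and IL-15 replicate 2 lay within the media control range. The difference was 2.54 (SE 0.27, adjusted p = 3.31e-05) for IL-4, a 5.8-fold higher level, 2.08 (SE 0.27, adjusted p = 9.07e-05) for IL-2, 1.91 (SE 0.27, adjusted p = 0.000332) for IL-21 and 1.51 (SE 0.27, adjusted p = 0.0112) for IL-7. The IL-7 call was lost without IL-7 replicate 1 or 2, or media control replicate 2 (adjusted p = 0.0627, 0.0628 and 0.068).

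Msmo1, the methylsterol oxidase, had log2 values of 11.29, 11.55 and 11.44 under IL-2, 11.21, 11.32 and 11.41 under IL-4 and 10.96, 11.02 and 11.08 under IL-7. Its values were 9.96, 9.57 and 11.18 under IL-15 and 11.49, 11.40 and 11.56 under IL-21, against 9.78, 9.27 and 9.76 in media control. IL-15 replicate 3 lay above the IL-7 arrays, while IL-15 replicate 2 lay within the media control range. The difference was 1.88 (SE 0.28, adjusted p = 0.000567) for IL-21, 1.83 (SE 0.28, adjusted p = 0.000365) for IL-2, 1.71 (SE 0.28, adjusted p = 0.00111) for IL-4 and 1.42 (SE 0.28, adjusted p = 0.019) for IL-7. The IL-7 call was lost without media control replicate 2 or 3 or any 1 IL-7 array (adjusted p = 0.0577 to 0.109).

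Cyp51, the lanosterol demethylase, had log2 values of 10.84, 10.80 and 10.67 under IL-2, 10.82, 10.66 and 10.77 under IL-4 and 10.56, 10.29 and 10.38 under IL-7. It had 9.93, 9.24 and 10.26 under IL-15 and 10.89, 10.70 and 10.78 under IL-21, against 9.65, 8.93 and 8.88 in media control. IL-2, IL-4 and IL-21 lay within a narrow band, and all their arrays exceeded media control. The difference was 1.64 (SE 0.22, adjusted p = 0.000274) for IL-21, 1.62 (SE 0.22, adjusted p = 0.000167) for IL-2, 1.60 (SE 0.22, adjusted p = 0.000347) for IL-4 and 1.26 (SE 0.22, adjusted p = 0.0116) for IL-7, with the IL-7 call lost without IL-7 replicate 1 or 2, or media control replicate 2 or 3 (adjusted p = 0.0577 to 0.0713).

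Sqle, squalene epoxidase, and Hsd17b7, a ketosterol reductase, rose with each of IL-2, IL-4, IL-7 and IL-21, by 1.29 to 1.48 and by 1.01 to 1.43. Sc5d, a sterol desaturase, rose with IL-2 (0.88), IL-4 (1.02) and IL-21 (1.38). A second Sc5d probe set above background differed less, by 0.16 for IL-2, 0.28 for IL-4 and 0.31 for IL-21. Dhcr7, the last reductase, rose with IL-4 by 0.84, Nsdhl, a sterol dehydrogenase, rose with IL-2 by 0.77, and Tm7sf2, another sterol reductase, rose with IL-4 by 0.76 and with IL-21 by 0.72. With the replicate block Sc5d, Dhcr7, Nsdhl and Tm7sf2 were each called with all 4 of these cytokines. Ebp, the sterol isomerase, was called with no cytokine, and with the replicate block it was lower with IL-2 and higher with IL-21, with differences of −0.24 (SE 0.13) for IL-2, 0.05 (SE 0.13) for IL-4 and 0.29 (SE 0.13) for IL-21.

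Among the 5 genes that regulate SREBPs, Insig1 alone was called. Insig1, which holds the SREBP and Scap complex in the endoplasmic reticulum and is itself an SREBP target, had log2 values of 10.46, 10.35 and 9.997 under IL-2, 10.56, 10.31 and 10.06 under IL-4 and 10.21, 9.86 and 9.68 under IL-7. It had 9.81, 9.30 and 9.47 under IL-15 and 10.41, 10.004 and 10.06 under IL-21, against 9.48, 9.01 and 8.49 in media control. Replicate 1 was the highest array in every group, and the IL-15 arrays alone overlapped media control. The difference was 1.31 (SE 0.23, adjusted p = 0.00211) for IL-4, 1.27 (SE 0.23, adjusted p = 0.00141) for IL-2 and 1.16 (SE 0.23, adjusted p = 0.00595) for IL-21. With IL-7 it was 0.92 (SE 0.23, adjusted p = 0.0623), which passed with the replicate block (adjusted p = 0.0007, and 0.0007 to 0.728 over all alternatives).

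Srebf1, which encodes the SREBP of fatty acid synthesis, differed by 0.32 (SE 0.21) for IL-2, 0.63 (SE 0.21) for IL-4, 0.50 (SE 0.21) for IL-7 and 0.62 (SE 0.21) for IL-21, and none was called. For Srebf2, the SREBP of sterol synthesis, the differences were 0.22 to 0.55 over these 4 cytokines, each with an SE of 0.43, and replicate 3 was the lowest array in all 6 groups. With the probe sets used, Insig2 and Scap, the escort protein, differed from media control by −0.19 to 0.12 with any cytokine. A second Insig2 probe set above background differed by 0.55 for IL-2, 0.34 for IL-4, 0.28 for IL-7, 0.19 for IL-15 and 0.23 for IL-21. With the replicate block Srebf1 and Srebf2 were each called with IL-4, IL-7 and IL-21, and Insig2 and Scap with none. A second Srebf2 probe set above background did not show these differences, with −0.09 for IL-4, 0.04 for IL-7 and 0.03 for IL-21.

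Of the 3 sterol transport genes, the intracellular carrier Stard4 was higher and the exporter Abcg1 lower. Stard4, which carries cholesterol between membranes inside the cell, had log2 values of 9.996, 10.34 and 9.93 under IL-2, 9.81, 9.80 and 9.79 under IL-4 and 9.94, 10.14 and 9.92 under IL-7. It had 9.62, 9.35 and 9.83 under IL-15 and 9.83, 9.99 and 9.69 under IL-21, against 9.39, 8.996 and 9.23 in media control. Apart from IL-15 replicate 2 every cytokine array lay above the media control arrays. The difference was 0.88 (SE 0.15, adjusted p = 0.000758) for IL-2, 0.79 (SE 0.15, adjusted p = 0.0148) for IL-7, 0.63 (SE 0.15, adjusted p = 0.0167) for IL-21 and 0.59 (SE 0.15, adjusted p = 0.0203) for IL-4. The IL-4 call was lost without media control replicate 2 or any 1 IL-4 array (adjusted p = 0.0534 to 0.113). The IL-7 call was lost without IL-7 replicate 1 or 2, or media control replicate 2 or 3 (0.058 to 0.089), and the IL-21 call without IL-21 replicate 1 or 2, or media control replicate 2 (0.0569 to 0.0956). With the mean of all its probe sets Stard4 was called with IL-2 alone, with adjusted p of 0.0743 for IL-4, 0.0874 for IL-7 and 0.0611 for IL-21.

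Abcg1, which exports cholesterol to lipoproteins, had log2 values of 8.11, 8.97 and 9.13 under IL-2, 8.32, 9.12 and 8.77 under IL-4 and 8.91, 9.73 and 9.58 under IL-7. It had 9.11, 10.11 and 9.72 under IL-15 and 7.81, 8.86 and 8.40 under IL-21, against 9.29, 10.31 and 10.03 in media control. Replicate 1 was the lowest array in every group, and the IL-2, IL-4 and IL-21 arrays all lay below the media control arrays. Abcg1 fell with IL-21 and IL-2, with differences of −1.53 (SE 0.36, adjusted p = 0.0176) and −1.14 (SE 0.36, adjusted p = 0.0437). The IL-21 call was lost without IL-21 replicate 1, or media control replicate 2 or 3 (adjusted p = 0.104, 0.0941 and 0.0647), and the IL-2 call without IL-2 replicate 1 or 2, or media control replicate 2 or 3 (0.223, 0.0604, 0.198 and 0.113). Without the 3 arrays on the lower scale both calls were lost (0.0584 for IL-21 and 0.0912 for IL-2), and the IL-2 call also under median centring (0.0523). With IL-4 the difference was −1.14 (SE 0.36, adjusted p = 0.0651) and with IL-7 −0.47 (SE 0.36, adjusted p = 0.624), and both passed with the replicate block (adjusted p = 5.4e-06 and 0.00954, against 5.4e-06 to 0.66 and 0.00954 to 0.953 over all alternatives).

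Abca1, the exporter that loads lipid-poor apolipoproteins, had log2 values of 5.22, 5.42 and 6.81 under IL-2, 5.10, 5.31 and 6.03 under IL-4 and 5.44, 5.83 and 6.58 under IL-7. It had 5.83, 7.43 and 6.80 under IL-15 and 5.56, 6.66 and 6.19 under IL-21, against 6.02, 8.10 and 7.56 in media control. Its mean lay under the background level, so the size of its differences, −1.75 (SE 0.55) for IL-4 and −1.41 (SE 0.55) for IL-2, is not exact, and none was called. Its other probe sets, with lower means of 3.92 and 3.19, did not show the fall, with 0.07 and −0.06 for IL-2 and 0.03 and 0.22 for IL-4. With the probe set used, each cytokine array was lower than the media control array of the same number. That difference was called with the replicate block with IL-2, IL-4, IL-7 and IL-21. Myeloid cells are known for high Abca1 and Abcg1. The mean of the 8 myeloid markers was 5.88, 6.76 and 5.43 on the IL-15 arrays, against 6.28, 7.45 and 5.83 on the media control arrays. It was highest in replicate 2 of both groups, as Abca1 and Abcg1 were, and the same held with IL-21. With IL-2, IL-4 and IL-7 the myeloid mean was lowest in replicate 3 (5.28, 5.34 and 5.22), where Abca1 was highest. Abcg1 was highest in replicate 3 with IL-2, but in replicate 2 with IL-4 and IL-7. The part of myeloid RNA in the lower values of both exporters was not tested.

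Of the 5 genes of acetyl-CoA, NADPH and fatty acid synthesis, IL-2 raised 2, IL-4 raised 1, IL-7 raised 1 and IL-21 raised 1. Fasn, fatty acid synthase, had log2 values of 11.15, 10.98 and 10.63 under IL-2, 10.92, 11.03 and 10.57 under IL-4 and 10.66, 10.45 and 10.61 under IL-7. It had 10.12, 9.75 and 10.05 under IL-15 and 10.60, 10.54 and 10.58 under IL-21, against 10.05, 9.73 and 9.86 in media control. The IL-15 arrays overlapped media control and the arrays of the other 4 cytokines did not. Its difference was 1.04 (SE 0.16, adjusted p = 0.000308) for IL-2, 0.96 (SE 0.16, adjusted p = 0.00105) for IL-4, 0.70 (SE 0.16, adjusted p = 0.0337) for IL-7 and 0.70 (SE 0.16, adjusted p = 0.0114) for IL-21. The IL-7 call was lost without media control replicate 2 or 3 or any 1 IL-7 array (adjusted p = 0.0804 to 0.175) and under median centring (0.0635), and the IL-21 call without media control replicate 2 (0.0628).

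Acaca, acetyl-CoA carboxylase, the first committed enzyme of fatty acid synthesis, had log2 values of 9.66, 9.79 and 9.72 under IL-2, 9.47, 9.60 and 9.22 under IL-4 and 9.48, 9.43 and 9.19 under IL-7. It had 9.10, 8.80 and 9.47 under IL-15 and 9.73, 9.60 and 9.29 under IL-21, against 9.05, 8.61 and 9.38 in media control. The IL-2 arrays alone all exceeded the 3 media control arrays. Acaca rose with IL-2, by 0.71 (SE 0.20, adjusted p = 0.0212), a call lost without IL-2 replicate 1 or 2, or media control replicate 2 (adjusted p = 0.0508, 0.0676 and 0.132). Acly, which makes cytosolic acetyl-CoA from citrate, differed by 0.43 to 0.62 with IL-2, IL-4, IL-7 and IL-21, and was called with all 4 with the replicate block alone. Me1, an NADPH-making malic enzyme, and Acss2, which makes acetyl-CoA from acetate, were called with no cytokine. With the replicate block Me1 was higher with IL-2 and with IL-21, and Acss2 lower with IL-4. The differences of Acss2 were −0.37 (SE 0.42) for IL-2 and −0.54 (SE 0.42) for IL-4. The mean of Me1 lay under the background level.

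**Figure D3:**
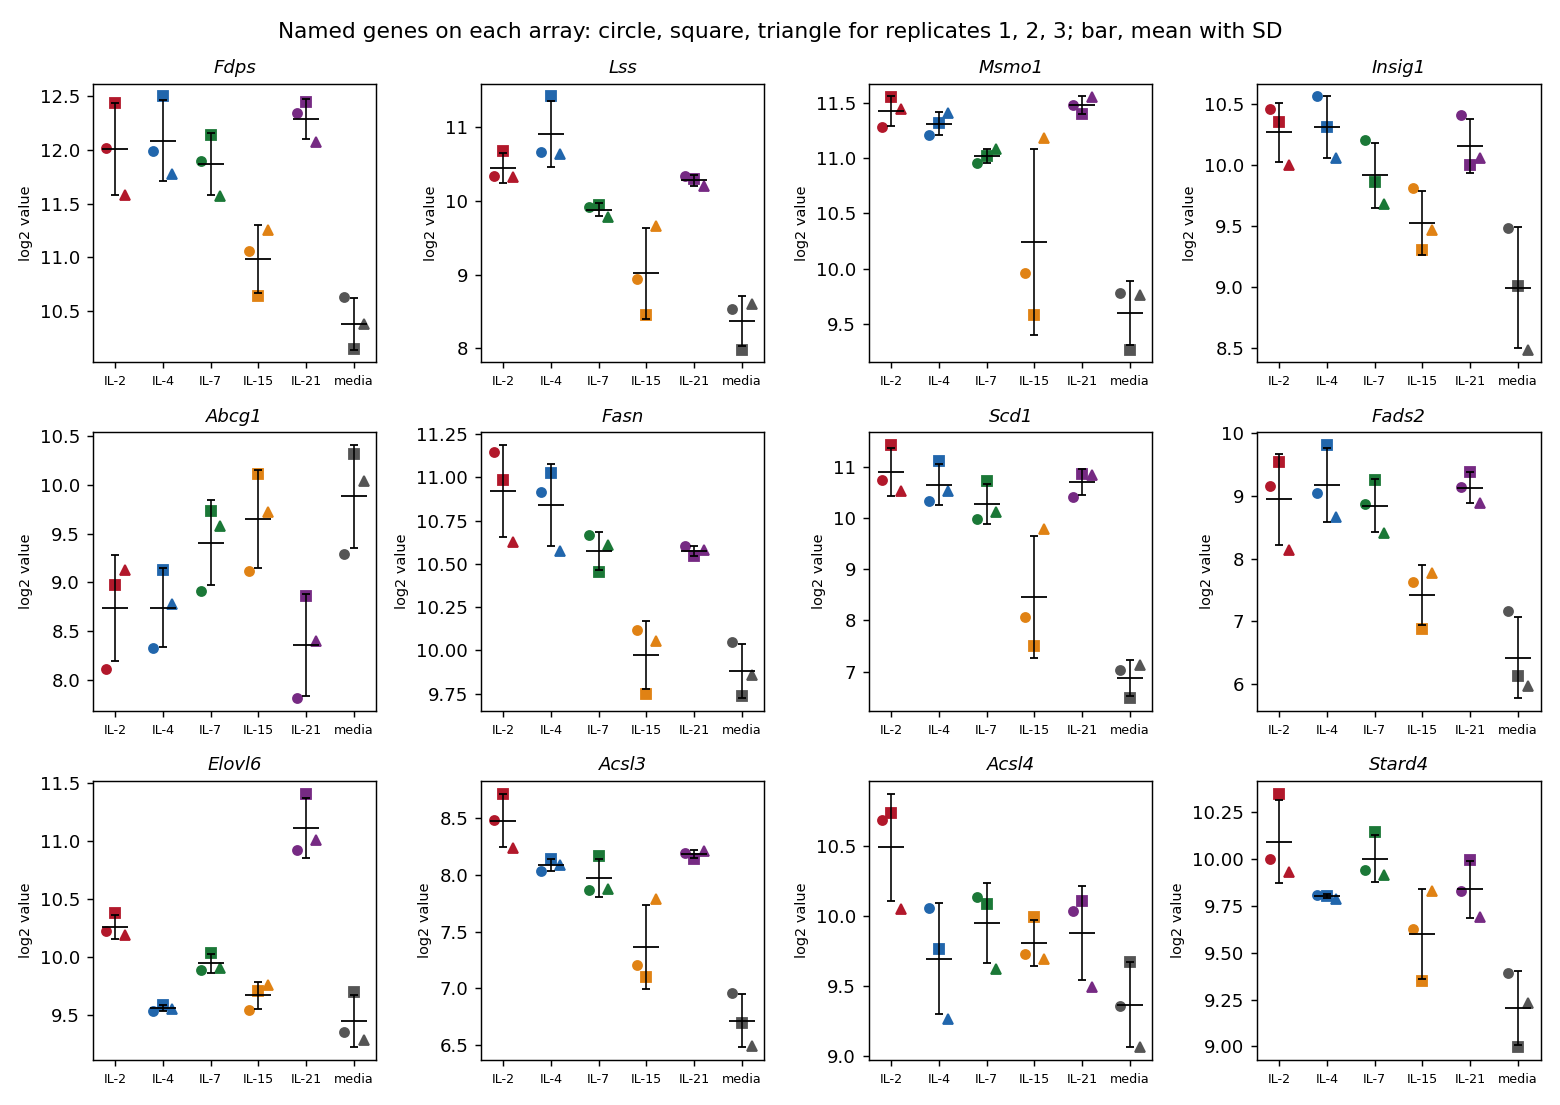
Log2 values (y axis) of 12 genes on each array, by group (x axis), with symbols for the replicate number and a bar for the mean with its SD (n = 3). Scd1 and Fads2 show the widest gap between the cytokine and media control arrays, Elovl6 is highest with IL-21, and Abcg1 is highest in media control.

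With every cytokine the largest differences of all 39 genes were those of 2 desaturases, Scd1 and Fads2. Scd1, which puts the double bond into stearate and palmitate, had log2 values of 10.73, 11.42 and 10.52 under IL-2, 10.33, 11.10 and 10.52 under IL-4 and 9.98, 10.71 and 10.12 under IL-7. It had 8.06, 7.503 and 9.79 under IL-15 and 10.41, 10.85 and 10.84 under IL-21, against 7.03, 6.48 and 7.14 in media control. No cytokine array overlapped media control, and IL-15 replicate 3 stood close to the IL-7 arrays while the other two IL-15 arrays stood closer to media control. Media control replicate 2 lay under the background level, so the sizes are not exact. The difference was 4.01 (SE 0.44, adjusted p = 3.06e-05) for IL-2, about a 16.1-fold higher level, 3.82 (SE 0.44, adjusted p = 6.54e-05) for IL-21, 3.77 (SE 0.44, adjusted p = 7.52e-05) for IL-4 and 3.39 (SE 0.44, adjusted p = 0.00259) for IL-7. No call was lost without any 1 array.

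Fads2, which starts the desaturation of polyunsaturated fatty acids, had log2 values of 9.15, 9.54 and 8.15 under IL-2, 9.06, 9.81 and 8.66 under IL-4 and 8.88, 9.25 and 8.41 under IL-7. It had 7.63, 6.88 and 7.77 under IL-15 and 9.14, 9.38 and 8.88 under IL-21, against 7.17, 6.12 and 5.98 in media control. Media control replicates 2 and 3 lay under the background level of 6.72, so the sizes are not exact, and IL-15 replicate 2 was the only cytokine array within the media control range. The difference was 2.75 (SE 0.40, adjusted p = 0.000431) for IL-4, 2.71 (SE 0.40, adjusted p = 0.0005) for IL-21, 2.52 (SE 0.40, adjusted p = 0.000451) for IL-2 and 2.43 (SE 0.40, adjusted p = 0.00847) for IL-7, the last lost without IL-7 replicate 2 (adjusted p = 0.0579). Fads1, the next desaturase of that pathway, rose with IL-2 (0.61), IL-4 (0.81) and IL-7 (0.75), and Scd2, the other stearoyl-CoA desaturase measured, with IL-2 (0.91), IL-4 (0.96) and IL-21 (0.83).

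The elongases did not follow one pattern. Elovl6, which lengthens palmitate to stearate, had log2 values of 10.22, 10.38 and 10.19 under IL-2, 9.54, 9.59 and 9.55 under IL-4 and 9.89, 10.04 and 9.91 under IL-7. It had 9.54, 9.71 and 9.76 under IL-15 and 10.92, 11.40 and 11.005 under IL-21, against 9.36, 9.70 and 9.28 in media control. The 3 IL-21 arrays lay above all others, the IL-2 arrays came next, and the IL-4 arrays lay within the media control range. The difference was 1.66 (SE 0.14, adjusted p = 3.07e-06) for IL-21, a 3.17-fold higher level, and 0.81 (SE 0.14, adjusted p = 0.000796) for IL-2. With IL-7 it was 0.50 (SE 0.14, adjusted p = 0.0861), which passed with the replicate block (adjusted p = 0.00452, and 0.00452 to 0.728 over all alternatives), and with IL-4 it was 0.11 (SE 0.14, adjusted p = 0.722). Elovl1, an elongase of very long chains, rose with IL-21 by 0.44. Elovl5, the elongase of polyunsaturated fatty acids, fell with IL-2, with a difference of −0.49 (SE 0.12, adjusted p = 0.0112) and values of 11.76, 11.88 and 11.73 under IL-2, all below the 12.12, 12.30 and 12.44 of media control.

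Both acyl-CoA synthetases, which activate free fatty acids for use, rose with IL-2. Acsl3, which acts at lipid droplets, had log2 values of 8.48, 8.71 and 8.24 under IL-2, 8.03, 8.14 and 8.09 under IL-4 and 7.87, 8.16 and 7.88 under IL-7. It had 7.21, 7.10 and 7.79 under IL-15 and 8.20, 8.14 and 8.21 under IL-21, against 6.96, 6.69 and 6.50 in media control. All cytokine arrays exceeded the media control arrays, of which replicates 2 and 3 lay under the background level. The difference was 1.76 (SE 0.17, adjusted p = 1.38e-05) for IL-2, 1.47 (SE 0.17, adjusted p = 8.19e-05) for IL-21, 1.37 (SE 0.17, adjusted p = 0.000156) for IL-4 and 1.25 (SE 0.17, adjusted p = 0.00328) for IL-7, and no call was lost without any 1 array.

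Acsl4, which prefers arachidonate, had log2 values of 10.68, 10.73 and 10.05 under IL-2, 10.06, 9.76 and 9.27 under IL-4 and 10.13, 10.09 and 9.62 under IL-7. It had 9.73, 9.99 and 9.69 under IL-15 and 10.03, 10.10 and 9.49 under IL-21, against 9.36, 9.67 and 9.07 in media control. The IL-2 array was the highest of the 6 for every replicate number, and the IL-2 and IL-15 arrays all lay above media control. Acsl4 rose with IL-2, by 1.12 (SE 0.24, adjusted p = 0.00473). The difference was 0.58 (SE 0.24, adjusted p = 0.282) for IL-7 and 0.51 (SE 0.24, adjusted p = 0.295) for IL-21, and both passed with the replicate block (adjusted p = 0.00592 and 0.00778, against 0.00592 to 0.744 and 0.00778 to 0.749 over all alternatives).

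IL-15 shares the beta and gamma receptor chains with IL-2, and of the 5 cytokines it gave the smallest median difference over these genes. No gene of the 18194 was called with IL-15 in the limma fit (0% of all genes), with the smallest adjusted p of the 39 genes at 1, or at 0.31 for Insig1 with the replicate block. An unadjusted p under 0.05 was reached by 14 of the 39 genes (2.14% of all genes), and by 20 with the block (8.61%). The difference was above 0 for 31 genes, for which no share of all genes was counted. Of the 39, 27 were higher in 3 of 3 same-numbered pairs (18.1% of all genes). All 3 IL-15 arrays lay above all 3 media control arrays for Hmgcs1, Fdps, Scd1, Scd2, Fads1, Acsl3 and Acsl4, 7 genes, where 1.8% of all genes did.

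The IL-15 arrays differed among themselves. Of the 17 enzymes from mevalonate to cholesterol, 12 exceeded all media control arrays on IL-15 replicate 1, 2 on replicate 2 and 14 on replicate 3, and their mean lay 0.37, 0.03 and 0.77 above the media control mean. On the media control arrays of the same numbers the mean lay at 0.19, −0.21 and 0.03. IL-15 replicate 3 was 1 of the 3 arrays on the lower scale and from the TRIzol extraction, and a part of either in its higher values was not tested. The largest IL-15 differences were those of Scd1, 1.57 (SE 0.44), and Fads2, 1.00 (SE 0.40).

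Set against IL-2 directly, most of the called differences were with IL-15. IL-2 was higher than IL-15 in 15 of the 39 genes and lower in none, where 4.24% of all genes were higher and 4.35% lower. Of the named genes, Scd1 differed by 2.44 (SE 0.44, adjusted p = 0.00248), Fads2 by 1.52 (SE 0.40, adjusted p = 0.0258), Lss by 1.43 (SE 0.27, adjusted p = 0.00302) and Fasn by 0.95 (SE 0.16, adjusted p = 0.00139). The count rested on single arrays, with 10 calls without IL-2 replicate 1, 7 without IL-2 replicate 2, 10 without IL-15 replicate 1 and 6 without IL-15 replicate 2, but 21 and 20 without replicate 3 of IL-2 or IL-15. Fads2 was lost without any of the first 4 of these arrays (adjusted p = 0.0503 to 0.166), and Fdps, Idi1, Fdft1, Msmo1, Cyp51 and Elovl6 without 2 or 3 of them (0.0517 to 0.122). With the replicate block 26 genes were higher under IL-2 than under IL-15 and 3 lower, where 11.5% and 10.9% of all genes were.

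Between IL-2 and IL-4, 1 of the 39 genes was called (2.07% of all genes), namely Elovl6, higher with IL-2 by 0.70 (SE 0.14, adjusted p = 0.0116). That call was lost without IL-2 replicate 2 or IL-4 replicate 1 (adjusted p = 0.0595 and 0.0524), and under median centring (0.0623). Between IL-2 and IL-7 none was called (1.42%), with differences of −0.67 for Abcg1 to 0.62 for Scd1, and 1 was called without IL-2 replicate 3. Between IL-2 and IL-21, 2 were called (6.58%), and both were lower with IL-2 (3.71% of all genes), with 1 call without IL-2 replicate 1, IL-2 replicate 2 or IL-21 replicate 3. Elovl6 differed by −0.85 (SE 0.14, adjusted p = 0.00147), and Ebp by −0.54 (SE 0.13, adjusted p = 0.0157), with 10.76, 10.69 and 10.92 under IL-2, against 11.27, 11.23 and 11.48 under IL-21. With the replicate block 4, 4 and 6 genes were called against IL-4, IL-7 and IL-21 (10.6%, 11.1% and 21.4% of all genes). Acsl4 was then higher with IL-2 than with each, by 0.79 over IL-4, 0.54 over IL-7 and 0.61 over IL-21 (adjusted p = 0.000685, 0.0101 and 0.00221 with the block, and 0.134, 0.423 and 0.179 without it).

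**Figure D4:**
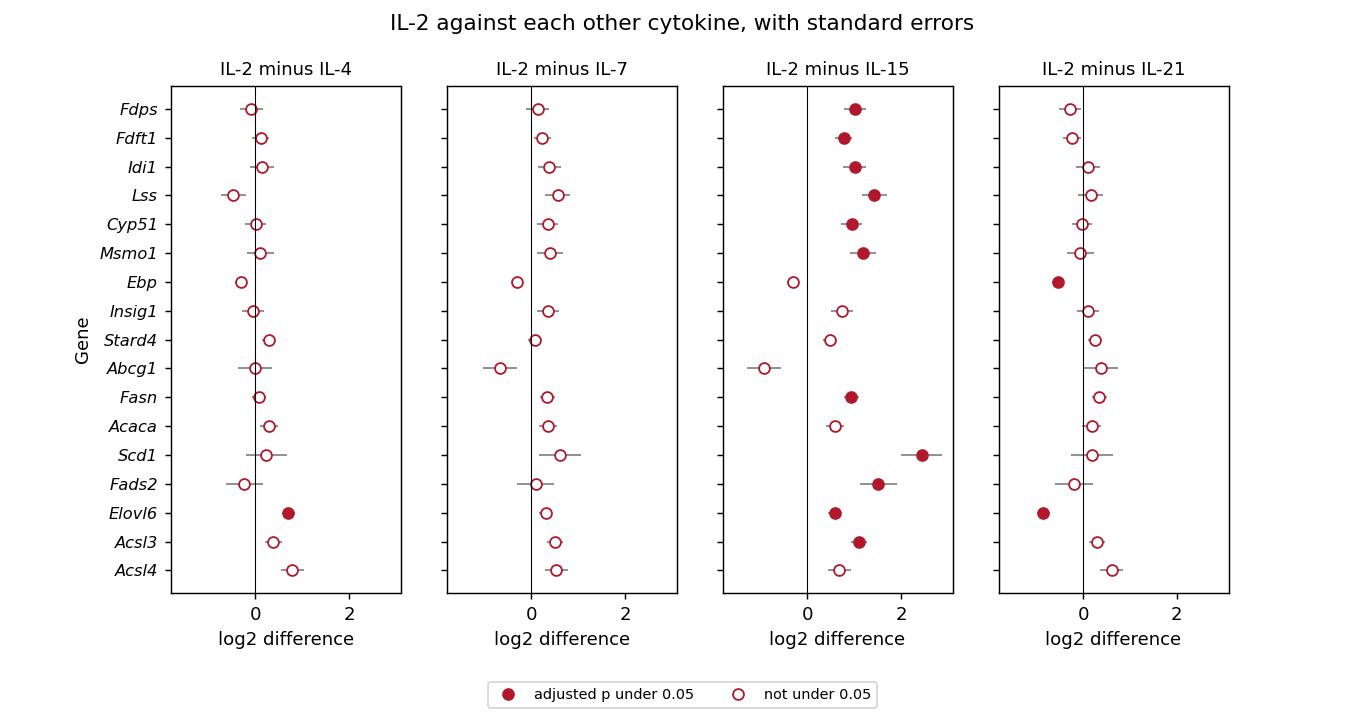
Log2 difference of IL-2 minus each other cytokine (x axis) with its standard error for 17 genes (y axis), with filled points at an adjusted p under 0.05. The IL-15 panel has most points to the right of 0, and Elovl6 is filled in the IL-4, IL-15 and IL-21 panels.

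Further genes of the same pathways were counted from lists of their own. Of 24 further sterol genes 17 were measured, and IL-2 raised 2 and lowered 3 of them, IL-4 raised 3 and lowered 1, and IL-7 and IL-21 raised 1 each. Over all genes IL-2 raised 7.83% and lowered 8%, IL-4 raised 3.98% and lowered 5.1%, IL-7 raised 0.934% and IL-21 raised 3.39%. Tmem97, a sterol-regulated membrane protein, rose with IL-2 by 1.75 (SE 0.35, adjusted p = 0.00265), and Scarb1, a receptor that takes up cholesterol from lipoproteins, by 1.296 (SE 0.19, adjusted p = 0.000317). Mylip, an LXR target that marks lipoprotein receptors for degradation, fell with IL-2 to 6.92, against 8.42 in media control, a difference of −1.496 (SE 0.22, adjusted p = 0.00032). The median difference of the 17 genes was −0.21 with IL-2 and lay between −0.08 and −0.05 for the other 4 cytokines.

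Of 28 further fatty acid genes 26 were measured, and IL-2 raised 7 and lowered 1, IL-4 raised 4, IL-7 raised 1 and IL-21 raised 4, beside the same shares of all genes. Acsl6, another acyl-CoA synthetase, averaged 8.37 with IL-2, against 5.37 in media control, a level under background, and rose by 3.00 (SE 0.57, adjusted p = 0.00177). Acss1, the mitochondrial acetyl-CoA synthetase, fell with IL-2, with a difference of −1.89 (SE 0.48, adjusted p = 0.0126). Dgat1, which completes triglycerides, rose with IL-21 by 2.07 (SE 0.25, adjusted p = 9.17e-05), with a mean of 12.17 against 10.10 in media control, and was lower with IL-2 than with IL-21 with a difference of −2.604 (SE 0.25, adjusted p = 1.73e-05). The median difference of the 26 genes was 0.22 for IL-2, 0.13 for IL-4, 0.09 for IL-7, 0.05 for IL-15 and 0.17 for IL-21.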

How the data were processed

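Expression was measured on Affymetrix mouse whole-genome arrays, 3 per group. The authors prepared labelled RNA with a 3′ protocol and made the deposited log2 values per probe set by RMA in Expression Console 1.1 (scanning software 3.1.1). Of 45101 probe sets, 34958 have 1 gene symbol in the platform annotation used here, while 932 with several and 9211 not listed were left out. All 18 columns were quantile normalized again, and for each of 18194 genes the probe set with the highest mean was kept, with no filter on low values. The background level, 6.72, is the 95th percentile of the means of 30 measured genes of other tissues. Arrays give no read depth, and 3 per group limit the precision.

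The comparisons used limma 3.58.1 under R 4.3.3 (lmFit over 18 arrays, group means, 12 residual degrees of freedom, eBayes, two-sided), with p adjusted by Benjamini-Hochberg over all genes of a comparison and a threshold of 0.05. After group means were removed, same-numbered arrays correlated across genes (45 pairs, lowest 0.44), above the highest of 90 other pairs (0.38), so the numbers pair the samples and a replicate block was fitted too. Alternatives were the deposited values, median centring, an extraction term, a fit over 2 groups, the mean of all probe sets, a filter on dim genes, and leaving out arrays. The members, lists and alternatives were chosen with earlier results of these data known. Values per array are given for up to 3 genes per role with the largest called difference from media control, and up to 3 genes of each other list are named. Array values of Abca1, Elovl5 and Ebp were added after their values were seen. Figures were drawn with matplotlib 3.10.9 under Python 3.11.15, with pandas 2.3.3.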

Additional observations from a re-analysis of the deposited data

How the results depend on the processing

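The counts of members called depended on how the 3 arrays on the lower scale were handled and on the replicate block. On the values as deposited, 3 members were called for IL-2, 3 for IL-4, 1 for IL-7, 5 for IL-21, 3 in the test over the 6 groups, and 0 between IL-2 and IL-4, IL-15 or IL-21. With the replicate block 29 were called with IL-7, 35 with IL-21, and 4, 4, 6 and 29 for IL-2 set against IL-4, IL-7, IL-21 and IL-15, and no call of a member against media control was lost. With the extraction kit as a covariate the count was 27 with IL-7 and 3, 2, 4 and 26 for IL-2 set against IL-4, IL-7, IL-21 and IL-15. A fit over the 2 groups compared gave 7 with IL-7 and 0, 0 and 1 between IL-2 and IL-4, IL-15 and IL-21. Without the 3 arrays on the lower scale, 2, 2 and 24 were called between IL-2 and IL-4, IL-7 and IL-15. Median centring gave 0 and the mean of all probe sets 2 between IL-2 and IL-4.

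When arrays were left out, singly or by replicate number, the count ran over 16 to 29 for IL-2, 9 to 27 for IL-4, 0 to 17 for IL-7, 0 for IL-15 and 11 to 30 for IL-21. It ran over 0 to 2 between IL-2 and IL-4, 0 to 1 for IL-7, 0 to 26 for IL-15, 0 to 3 for IL-21 and 7 to 31 in the test over the 6 groups. Within the RNeasy arrays (without replicate 3) the counts were 27 for IL-2, 27 for IL-4, 16 for IL-7, 0 for IL-15 and 30 for IL-21. Among the named genes 4 differences, none of them called, changed sign: Abcg1 with IL-7 was 0.051 on the deposited values, and with IL-15 0.033 without IL-15 replicate 1 (−0.53 to 0.033 over the arrays left out), and Acaca with IL-15 was −0.093 without media control replicate 2 and −0.062 without IL-15 replicate 3 (−0.093 to 0.29). The cause of these shifts was not tested. With 3 arrays a group and no detection calls, sizes are inexact for genes under the background level.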

Other observations

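The genes of fatty acid oxidation, which runs opposite to synthesis, were described alongside. Of 22 listed genes 21 were measured, and IL-2 raised 1 and lowered 3, IL-4 raised 1 and lowered 2, IL-7 raised 1 and lowered 1, and IL-21 raised 1 and lowered 1. Over all genes IL-2 raised 7.83% and lowered 8%, IL-4 3.98% and 5.1%, IL-7 0.934% and 0.747%, and IL-21 3.39% and 3.29%. Cpt1a, which brings fatty acids into mitochondria, was lower with IL-2 (−1.24, SE 0.15), IL-4 (−1.22, SE 0.15), IL-7 (−0.83, SE 0.15) and IL-21 (−1.03, SE 0.15), with means of 8.57, 8.60, 8.99 and 8.79 in these groups, against 9.81 in media control. Fabp5, a fatty acid binding protein, rose with IL-2 (1.62, SE 0.26), IL-4 (1.05, SE 0.26) and IL-7 (1.09, SE 0.26). Acadl, the long-chain acyl-CoA dehydrogenase, rose with IL-21 (1.98, SE 0.25), with a mean of 13.41 against 11.43 in media control. Acadl averaged 11.27 with IL-2, lower than with IL-21 (−2.15, SE 0.25, adjusted p = 0.000101). The median difference of these 21 genes, Fabp5 among them, lay between −0.11 and −0.02 with every cytokine. It was 0.25 to 0.83 for the 39 genes of the main list, which also holds SREBP regulators, sterol transport genes and acyl-CoA synthetases.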
